A study of Homo sapiens with 6 samples.

Results

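Genes for collagens, laminins, matrix metalloproteases, ADAM and ADAMTS proteases, tissue inhibitors of metalloproteases and serpins were compared between untreated and WNK463-treated MV4-11 cells. A gene belonged to the set when its symbol matched a name of the type COL (number) A (number), LAMA, LAMB or LAMC, MMP, ADAM, ADAMTS or ADAMTSL, TIMP1 to TIMP4, or SERPIN of clades A to F, H and I, and when its counts summed to at least 10 over the 6 samples. The rule used no difference between the groups. It matched 159 of the 20348 genes in the table, of which 79 reached 10 counts. These members were 22 of 44 collagens, 5 of 12 laminins, 9 of 22 MMPs, 10 of 20 ADAMs, 14 of 24 ADAMTS and ADAMTSL genes, 3 of 4 TIMPs and 16 of 33 serpins. Of the 80 other matching genes, 47 had no count in any sample, and a gene at 0 may still have had up to 0.172 to 0.201 CPM (counts per 1000000), the level of 3 counts in the deepest and the shallowest library. Just inside the limit lay *SERPINE3* with 10, *SERPINB12* with 11 and *COL14A1* with 13 counts, and just outside lay *LAMA2*, *COL28A1* and *COL12A1* with 8 counts each.

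MV4-11 cells are an established line of human acute myeloid leukemia (AML). WNK463 is a compound that inhibits the WNK kinases, which regulate ion transport and cell volume. RNA-seq was done on 3 samples of untreated cells (Control) and on 3 samples treated with 1 μM WNK463 for 48 h (WNK463), all from this single cell line. Each library held 14915745 to 17411780 counts. The labels number the samples but do not say that they came from separate cultures, so the p-values measure the spread between these samples only. In bulk RNA, fewer cells of a type and less RNA per cell cannot be told apart.

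The extracellular matrix is built from collagen triple helices, from laminin trimers of an alpha, a beta and a gamma chain, and from glycoproteins that bind them. Metalloproteases of the MMP, ADAM and ADAMTS families cut matrix proteins and shed membrane proteins, and TIMPs block many of them. Serpins trap serine proteases, such as the plasminogen activators and the granule proteases of neutrophils, although some family members are chaperones or have no inhibitory activity. Myeloid cells are best known in this field for releasing proteases and their inhibitors.

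Most of the 79 genes were weakly expressed, and a few carried most of the RNA. On the TPM scale, which corrects for gene length and was summed over the members, the set had 1303 ± 17.0 in the Control samples and 2067 ± 30.8 in the WNK463 samples (SD, n = 3 each). The 10 highest members held 82.8% to 83.4% of this sum in every sample. By mean TPM the Control samples were led by *TIMP1* (196), *MMP14* (180.4), *ADAM10* (131), *SERPINB8* (118), *SERPINB6* (112), *MMP2* (89.1) and *SERPINF1* (88.3). The WNK463 samples were led by *MMP14* (386), *SERPINF1* (299), *TIMP1* (229), *ADAM10* (184), *MMP2* (149), *SERPINB8* (142) and *SERPINB6* (107). The Control and WNK463 sums were 279 ± 4.80 and 561 ± 16.0 TPM in MMPs, 445 ± 12.8 and 754 ± 6.88 TPM in serpins, 241 ± 9.48 and 334 ± 9.65 TPM in ADAMs, and 72.5 ± 1.72 and 122 ± 0.466 TPM in collagens. The sums were 19.2 ± 0.218 and 25.6 ± 0.837 TPM in ADAMTS and ADAMTSL genes and 217 ± 12.1 and 247 ± 11.2 TPM in TIMPs. The groups did not overlap in these 6 sums. In laminins they did, with 28.1 to 30.1 TPM in the Control and 19.6 to 31.2 TPM in the WNK463 samples. This overlap came from WNK463 replicate 1 alone, and the other treated samples had 19.7 and 19.6 TPM. In replicate 1 the *LAMC1* TPM was 24.2, although its counts were alike in the treated samples. TPM values sum to a fixed total per sample and were not scaled by the TMM library factors used for CPM below. On the TPM scale the WNK463 samples therefore stood higher against the Control than in such CPM. *TIMP1*, for example, went from 196 to 229 TPM but from 82.1 to 84.0 CPM as group means.

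Expression was tested gene by gene with edgeR's quasi-likelihood test, adjusted by the Benjamini-Hochberg method over all 11973 genes that passed its filter on low counts. All adjusted p-values below come from this test, and values after ± beside a log2 fold change are standard errors. A gene was counted as differentially expressed when its adjusted p was below 0.05 and its log2 fold change was 1 or more in either direction, and it was said to rise or fall when the adjusted p alone was below 0.05. Of the 79 members 59 were tested. Among them 20 were differentially expressed upward, beside a background of 9.62% of all tested genes, and 4 downward, beside 5.55%. These 24 stand beside 15.2% of all tested genes that were differentially expressed in either direction. A further 12 rose and 7 fell by less, and 16 did not pass. By the adjusted p alone 32 members rose and 11 fell, beside 35.5% and 35.3% of all tested genes. The median log2 fold change of the tested members was 0.56, and that of all tested genes was 0.016. The 20 untested members were under the count filter, which a gene can pass through its higher group alone. When all 79 were tested, 24 were differentially expressed upward and 5 downward, beside 10.7% and 5.63% of 13472 genes.

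Low genes reach a given fold more often, and the members were mostly low. Of the 36 tested members with a mean under 10 CPM, 38.9% were differentially expressed upward and 11.1% downward, beside 27.0% and 9.63% of all genes at that level. Of the 23 members at 10 CPM or more, 26.1% were upward and none downward, beside 3.92% and 4.22%. The counts of each family and gene list below stand beside these shares and those over all tested genes. Over all 79 members, 39 had every WNK463 value above every Control value and 13 had every one below, while 35.9% and 33.2% of the 13472 genes did so. All 24 differentially expressed members were also differentially expressed in each of the 6 fits that left out 1 sample.

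**Figure D1:**
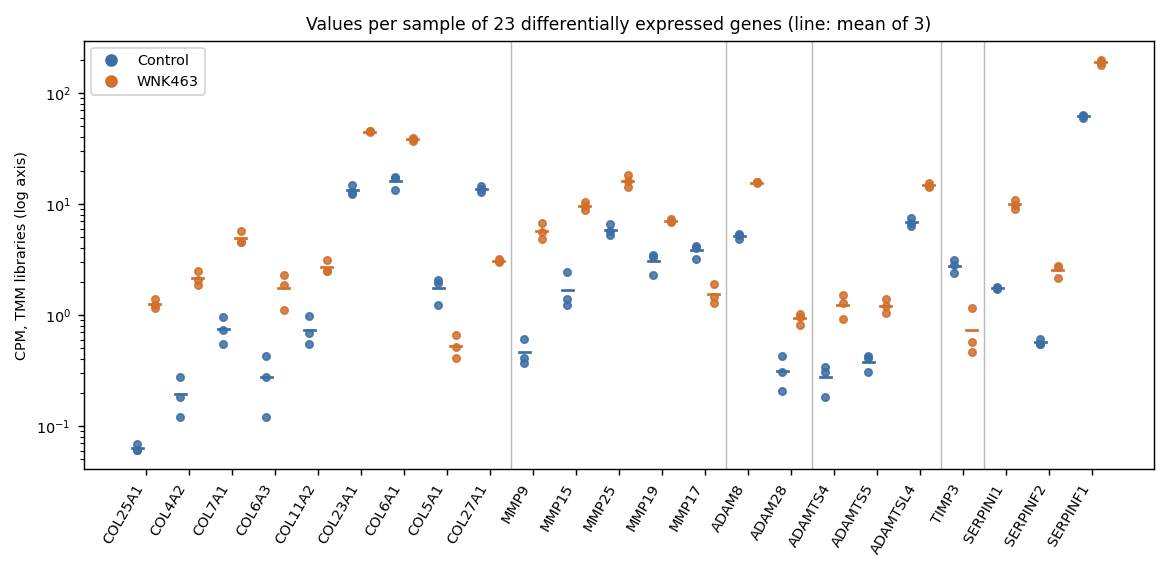
CPM (log axis) of 23 of the 24 differentially expressed genes in each of the 3 Control and 3 WNK463 samples, grouped by family, with the group mean as a line. The WNK463 points lie above the Control points in 19 genes and below them in *COL5A1*, *COL27A1*, *MMP17* and *TIMP3*.

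**Figure D2:**
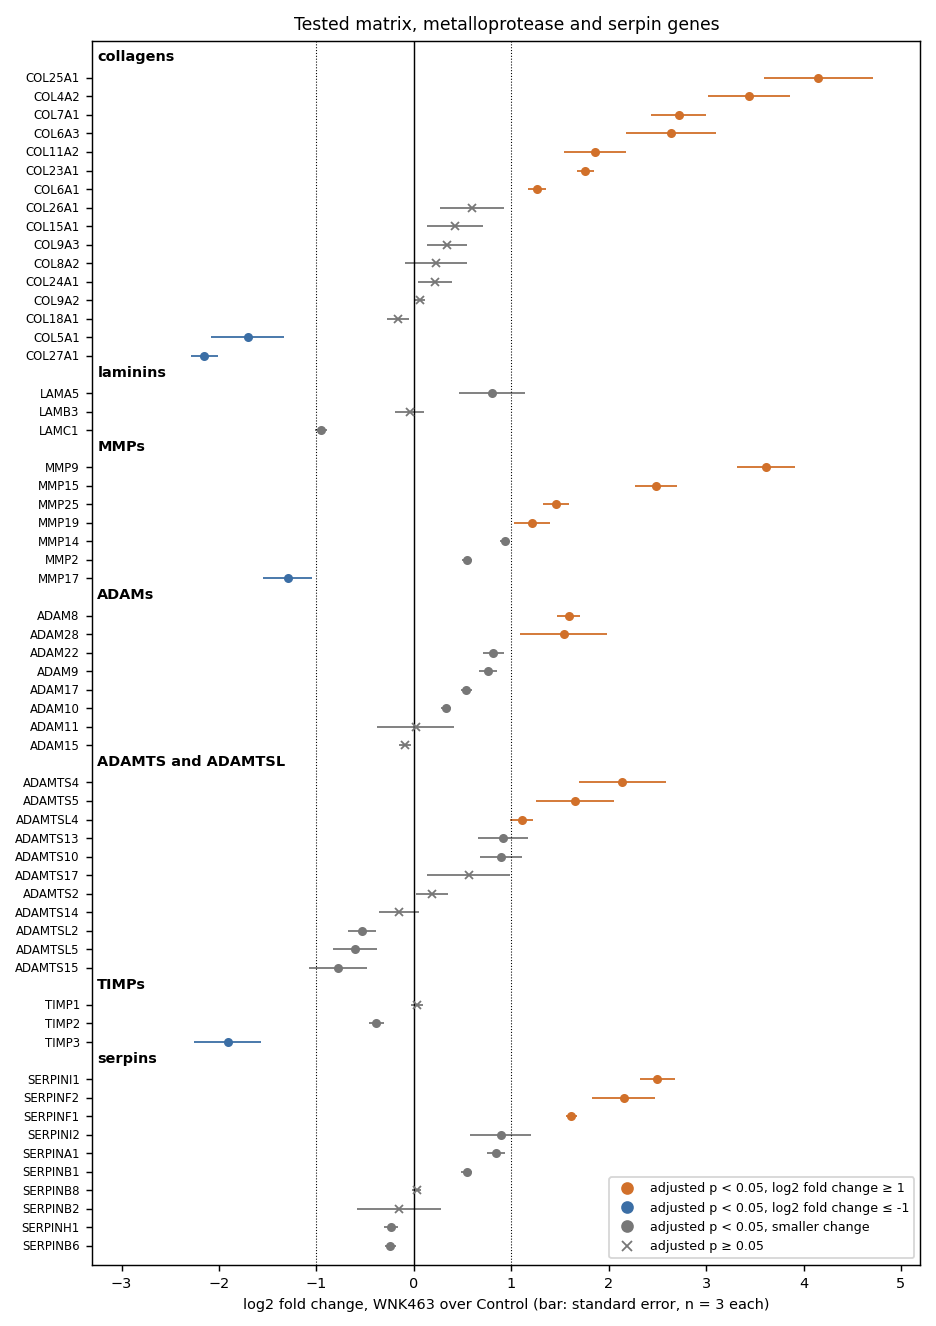
Log2 fold change of WNK463 over Control for 58 of the 59 tested genes by family (points), with standard errors (bars) and dotted lines at -1 and 1. The 19 orange points lie at 1.11 or more and the 4 blue points between -2.15 and -1.30.

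The proteins that MMPs and ADAMTS proteases act on are described first. Among the collagens 16 of 22 members were tested, 7 were differentially expressed upward and 2 downward, and the other 7 did not pass. Of all tested genes 9.62% were upward and 5.55% downward, and of those under 10 CPM 27.0% and 9.63%. The family did not move as a block, and the changes fell on particular chains.

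Among the network and filament collagens, *COL4A2* encodes the alpha 2 chain of type IV collagen, the sheet-forming collagen of basement membranes, and lies at chr13:110305812-110513209 (GRCh38, as are all coordinates here). Its values were 0.122, 0.274 and 0.183 CPM in the Control and 2.05, 2.50 and 1.85 CPM in the WNK463 samples, so that all treated samples were above all untreated ones (log2 fold change 3.44 ± 0.42, edgeR adjusted p = 1.06e-06). Its usual partner *COL4A1*, which is read in the opposite direction from a start 127 bases away in RefSeq, had 0, 0 and 0 counts in the Control and 2, 1 and 0 counts in the WNK463 samples. The RNA of the partner chain was thus not detectable above the limit of 3 counts per library. *COL7A1* (chr3:48564073-48595267), whose product forms the anchoring fibrils under epithelia, had 0.548, 0.960 and 0.732 CPM in the Control and 4.53, 4.53 and 5.68 CPM in the WNK463 samples. Here too the groups were separate (log2 fold change 2.72 ± 0.28, edgeR adjusted p = 1.05e-07).

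Type VI collagen, the beaded filament around many cells, is assembled from chains encoded by *COL6A1*, *COL6A2* and *COL6A3*. For *COL6A1* the values were 17.1, 17.6 and 13.4 CPM in the Control and 39.6, 37.2 and 38.3 CPM in the WNK463 samples, with no overlap (log2 fold change 1.26 ± 0.09, edgeR adjusted p = 1.55e-09). *COL6A3* had 0.122, 0.274 and 0.427 CPM in the Control and 1.87, 1.10 and 2.30 CPM in the WNK463 samples, again without overlap (log2 fold change 2.64 ± 0.47, edgeR adjusted p = 6.51e-05). *COL6A2*, which lies 93047 bp from *COL6A1* on chromosome 21, had 6, 3 and 8 counts in the Control and 4, 10 and 6 in the WNK463 samples. These values overlapped and the gene was not tested.

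The 2 transmembrane collagens among the members were both differentially expressed upward. *COL23A1* (chr5:178237618-178590555), the second collagen by mean TPM, had 12.9, 14.7 and 12.3 CPM in the Control and 45.3, 45.1 and 44.7 CPM in the WNK463 samples, and the treated samples lay far above the untreated ones (log2 fold change 1.76 ± 0.08, edgeR adjusted p = 3.59e-12). Its neighbour *CLK4* at a distance of 12109 bp rose as well (log2 fold change 1.12). *COL25A1* had 1 count in each Control sample and 23, 21 and 18 counts in the WNK463 samples. The ratio of its group sums, 62 to 3 counts, was 19.8 with a 95% counting interval of 6.48 to 98.7, which covers counting error only. The fitted log2 fold change of 4.15 ± 0.56 rests on these few Control counts.

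The fibril-forming collagens moved in both directions. *COL27A1* (chr9:114155560-114312511) was the collagen with the largest fall, with 13.8, 12.9 and 14.6 CPM in the Control and 3.02, 3.20 and 3.06 CPM in the WNK463 samples. The groups were separate, with the treated samples low (log2 fold change -2.15 ± 0.14, edgeR adjusted p = 2.46e-10), a level 4.44-fold lower. *COL5A1*, whose chain helps set fibril width, had 1.95, 2.06 and 1.22 CPM in the Control and 0.664, 0.407 and 0.511 CPM in the WNK463 samples, and its treated samples were also low without overlap (log2 fold change -1.71 ± 0.37, edgeR adjusted p = 5.47e-04). *COL11A2* went the other way with 0.974, 0.686 and 0.549 CPM in the Control and 2.48, 2.50 and 3.13 CPM in the WNK463 samples (log2 fold change 1.86 ± 0.32, edgeR adjusted p = 4.79e-05). The common fibrillar collagens were close to absent: *COL1A1* had 7 counts in the Control and 11 in the WNK463 samples, and *COL1A2* and *COL3A1* had none.

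*COL9A2*, a chain of the fibril-associated type IX collagen and the highest collagen by mean TPM (44.1), had 59.6, 61.2 and 64.3 CPM in the Control and 61.8, 65.1 and 66.2 CPM in the WNK463 samples. The groups overlapped and the log2 fold change was 0.06 ± 0.06 (edgeR adjusted p = 0.370). Scaled to total counts rather than by TMM factors it was 0.21 (adjusted p = 0.00437). The gene passed in 4 of 14 alternative fits, over which the log2 fold change was 0.03 to 0.25. *COL18A1*, the source of endostatin, had 12.7, 12.5 and 13.7 CPM in the Control and 12.6, 10.5 and 11.6 CPM in the WNK463 samples, which also overlapped (log2 fold change -0.16 ± 0.11, edgeR adjusted p = 0.203). Its exons share 1401 bases with *SLC19A1* on the other strand.

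Laminin trimers need a chain of each kind, and the table held few of them. Only *LAMC1*, *LAMB3* and *LAMA5* were tested, and none was differentially expressed with the fold limit. *LAMC1* (chr1:183023460-183145592), the gamma 1 chain found in most laminins, had 105, 98.6 and 93.0 CPM in the Control and 50.4, 51.9 and 50.9 CPM in the WNK463 samples. The treated samples lay at about the same low level, below all untreated ones (log2 fold change -0.95 ± 0.06, edgeR adjusted p = 1.45e-10), and the fall reached -1.01 without Control replicate 3, which makes it the single laminin past the fold limit there. Its deposited TPM value in WNK463 replicate 1 was 24.2, near the Control values of 22.8 to 24.3 and above the 14.0 and 13.6 of the other treated samples, although the counts of the 3 treated samples were alike. *LAMB3* showed a log2 fold change of -0.04 ± 0.15 (adjusted p = 0.797), which turned to 0.11 with total-count scaling and to 0.08 without Control replicate 1. *LAMA5* rose by 0.80 ± 0.34 (adjusted p = 0.0431), but missed the threshold in 5 of 6 fits with 1 sample left out (adjusted p 0.0561 to 0.250). *LAMB1* had 2 counts and *LAMB2* 5 counts over all samples, and *LAMA1* and *LAMA4* had none, so that most partner chains of *LAMC1* were near or at 0.

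**Figure D3:**
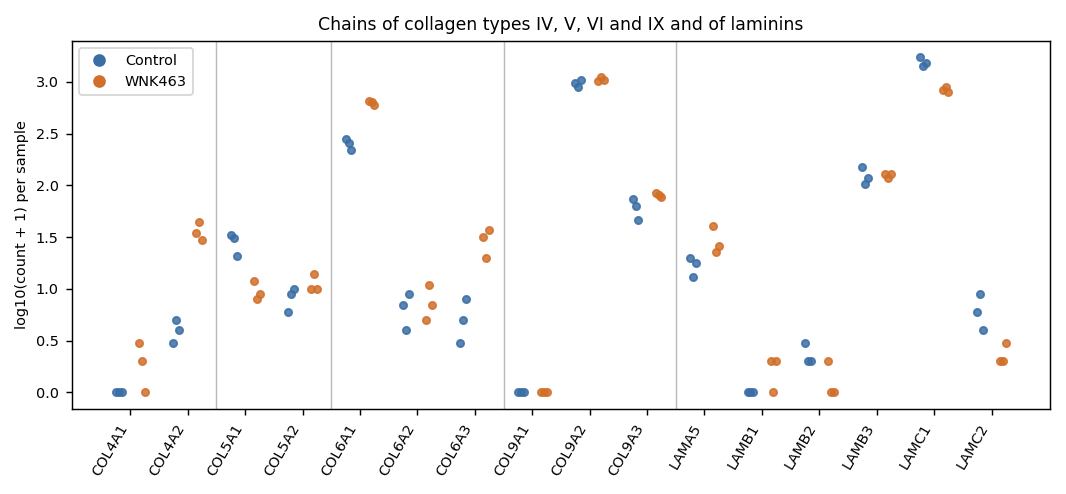
Log10 (count + 1) of chains of collagen types IV, V, VI and IX and of laminins in each of the 3 Control and 3 WNK463 samples (points). *COL4A2* and *COL6A3* are higher in the WNK463 samples while their partners *COL4A1* and *COL6A2* stay at 0 to 10 counts, and *LAMC1* stands far above the other laminin chains.

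The sequence before the start of 4 differentially expressed genes is shown, 2 from each direction, whose 250 bases before the RefSeq start lie outside the exons of GENCODE 29 except for 4 bases in *TIMP3*. *COL7A1* and *ADAM8* were higher and *COL27A1* and *TIMP3* lower in the WNK463 samples. RefSeq promoters (GRCh38.p14) were found for 54 of the 79 members. Capitals mark the GC box GGGCGG and the CCAAT box on either strand, and each sequence is printed 5′ to 3′ on the strand of its gene. The windows are chr3:48595330-48595579 (minus strand) for *COL7A1*, chr10:133276869-133277118 (minus strand) for *ADAM8*, chr9:114155287-114155536 (plus strand) for *COL27A1* and chr22:32801455-32801704 (plus strand) for *TIMP3*.
COL7A1: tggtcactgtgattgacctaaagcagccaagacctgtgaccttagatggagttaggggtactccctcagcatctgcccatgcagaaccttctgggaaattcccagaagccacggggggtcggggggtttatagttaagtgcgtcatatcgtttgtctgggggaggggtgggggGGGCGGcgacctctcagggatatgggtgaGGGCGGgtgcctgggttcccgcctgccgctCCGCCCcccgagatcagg
ADAM8: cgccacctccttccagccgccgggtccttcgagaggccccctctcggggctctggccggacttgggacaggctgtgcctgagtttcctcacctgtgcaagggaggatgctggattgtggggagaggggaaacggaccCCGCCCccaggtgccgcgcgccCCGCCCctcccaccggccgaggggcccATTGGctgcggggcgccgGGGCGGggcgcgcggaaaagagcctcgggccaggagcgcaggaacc
COL27A1: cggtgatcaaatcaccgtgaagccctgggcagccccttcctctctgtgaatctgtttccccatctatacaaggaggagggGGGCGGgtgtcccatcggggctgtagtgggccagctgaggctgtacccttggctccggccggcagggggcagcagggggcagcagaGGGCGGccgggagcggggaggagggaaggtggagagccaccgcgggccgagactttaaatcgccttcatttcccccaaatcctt
TIMP3: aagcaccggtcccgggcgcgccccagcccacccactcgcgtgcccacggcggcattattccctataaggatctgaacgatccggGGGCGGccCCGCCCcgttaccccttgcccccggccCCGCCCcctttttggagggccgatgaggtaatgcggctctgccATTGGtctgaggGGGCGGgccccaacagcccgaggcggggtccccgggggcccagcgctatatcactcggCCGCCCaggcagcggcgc
The window of *TIMP3* held 5 GC boxes and 1 CCAAT box, that of *ADAM8* 3 and 1, that of *COL7A1* 3 GC boxes and that of *COL27A1* 2. At least 1 GC box was found in the window of 39 of the 54 members with a promoter, in 67.2% of the promoters of tested genes and in 42.3% of all 27305 promoters. A CCAAT box was found in 9 of the 54, in 35.3% and in 33.0%. The motif TATAAA was in 9 of the 54, in 5.29% and in 11.1%, and the AP-1 type motif TGANTCA in 5 of the 54, in 3.59% and in 6.60%. Only 10 of the 20 upward members had a promoter. Of these 10, 6 held a GC box, 3 a CCAAT box, 1 TATAAA and none TGANTCA.

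Among the 7 families the MMPs had the largest share of tested members that passed. All 7 tested MMPs passed the test, 4 differentially expressed upward and 1 downward, and the other 2 rose by less. Of all tested genes 35.5% rose and 35.3% fell by the adjusted p alone, so most genes passed. With the fold limit 9.62% were upward and 5.55% downward. The 2 untested MMPs, *MMP21* and *MMP24*, had 2 to 8 counts per sample. The 9 secreted MMPs that lie in a cluster on the long arm of chromosome 11, among them the collagenases *MMP1*, *MMP8* and *MMP13*, had no count in any sample.

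*MMP14* (chr14:22836557-22849027) encodes the membrane-anchored MT1-MMP, which activates the MMP2 proenzyme at the cell surface, and it was the second highest member by mean TPM in the Control and the highest in the WNK463 samples. Its values were 288, 278 and 267 CPM in the Control and 536, 510.2 and 544 CPM in the WNK463 samples, and the treated samples were all far above the untreated ones (log2 fold change 0.93 ± 0.05, edgeR adjusted p = 8.68e-12). The change of 1.91-fold stayed just under the fold limit, and it passed the limit with total-count scaling (1.09). *MMP2*, gelatinase A, had 145, 139 and 139 CPM in the Control and 215, 196 and 207 CPM in the WNK463 samples without overlap (log2 fold change 0.55 ± 0.05, edgeR adjusted p = 2.39e-08).

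*MMP9* (chr20:46008908-46016561), gelatinase B, showed the largest rise of the family from a low level. Its values were 0.609, 0.412 and 0.366 CPM in the Control and 6.76, 4.88 and 5.62 CPM in the WNK463 samples, and the change of 12.2-fold was well beyond the spread (log2 fold change 3.61 ± 0.30, edgeR adjusted p = 5.72e-09). *MMP9* exons share 430 bases with the antisense gene *SLC12A5-AS1*, and the downstream neighbour *SLC12A5* also rose (log2 fold change 1.30). The strand setting of the library kit is not given in the sources used here, so that reads of overlapping genes on opposite strands may not be separated.

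Of the other membrane-anchored MMPs, *MMP15* (MT2-MMP, chr16:58025566-58046901) had 2.44, 1.23 and 1.40 CPM in the Control and 9.54, 8.78 and 10.5 CPM in the WNK463 samples. All treated samples were high (log2 fold change 2.49 ± 0.21, edgeR adjusted p = 1.01e-08). *MMP25* (MT6-MMP), a leukocyte enzyme on a GPI anchor, had 6.58, 5.76 and 5.31 CPM in the Control and 14.3, 18.3 and 16.1 CPM in the WNK463 samples (log2 fold change 1.46 ± 0.13, edgeR adjusted p = 1.88e-08), and its exons share 1454 bases with *MMP25-AS1*. In contrast *MMP17* (MT4-MMP), also GPI-anchored, had 4.20, 3.22 and 4.03 CPM in the Control and 1.45, 1.92 and 1.28 CPM in the WNK463 samples, with all treated samples low (log2 fold change -1.30 ± 0.25, edgeR adjusted p = 1.90e-04). The secreted *MMP19* had 2.31, 3.50 and 3.35 CPM in the Control and 7.01, 7.38 and 6.83 CPM in the WNK463 samples and rose (log2 fold change 1.21 ± 0.19, edgeR adjusted p = 1.43e-05). Its exons share 814 bases with *TMEM198B* on the other strand.

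None of the TIMPs rose in the edgeR test. *TIMP1* (chrX:47582313-47586789) made up 89.6% to 93.0% of TIMP TPM. It had 89.2, 78.5 and 78.7 CPM in the Control and 84.3, 79.4 and 88.2 CPM in the WNK463 samples. The groups overlapped, with a log2 fold change of 0.03 ± 0.06 (adjusted p = 0.672), which was -0.01 in 3 of 6 fits with 1 sample left out. With total-count scaling it was 0.18 (adjusted p = 0.0136). Its direction or its pass at the threshold changed in 7 of 14 alternative fits, with log2 fold changes of -0.01 to 0.22. *TIMP2*, which also takes part in the activation of the MMP2 proenzyme by MMP14, had 37.7, 37.6 and 35.6 CPM in the Control and 30.1, 25.6 and 29.1 CPM in the WNK463 samples and fell without overlap (log2 fold change -0.39 ± 0.08, edgeR adjusted p = 2.35e-04), although it did not pass on log2(TPM + 1), with -0.19. *TIMP3* (chr22:32801701-32863043), the matrix-bound inhibitor that also blocks ADAM17, had 3.11, 2.81 and 2.38 CPM in the Control and 1.15, 0.465 and 0.575 CPM in the WNK463 samples. The treated samples were all lower (log2 fold change -1.91 ± 0.34, edgeR adjusted p = 7.58e-05), from a level of a few CPM. Its sequence before the start is printed above. *TIMP4* had 1 count in all. *RECK*, a membrane-anchored inhibitor of MMPs outside the set, had 9.62, 11.9 and 10.9 CPM in the Control and 3.68, 4.01 and 5.11 CPM in the WNK463 samples and was differentially expressed downward (log2 fold change -1.34 ± 0.16, edgeR adjusted p = 5.93e-07).

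Set against each other, the summed MMP TPM was 1.29 ± 0.0686 times the summed TIMP TPM in the Control samples and 2.28 ± 0.0418 times in the WNK463 samples (SD, n = 3 each). The Control ratios lay between 1.21 and 1.35 and the WNK463 ratios between 2.23 and 2.32. *MMP14* and *MMP2* made up nearly all of the numerator, with 64.1% to 69.4% and 25.6% to 32.4% of MMP TPM. *TIMP1* made up most of the denominator, with 89.6% to 93.0% of TIMP TPM. The ratio compares sums of RNA, and how far these TIMPs inhibit these MMPs was not tested.

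**Figure D4:**
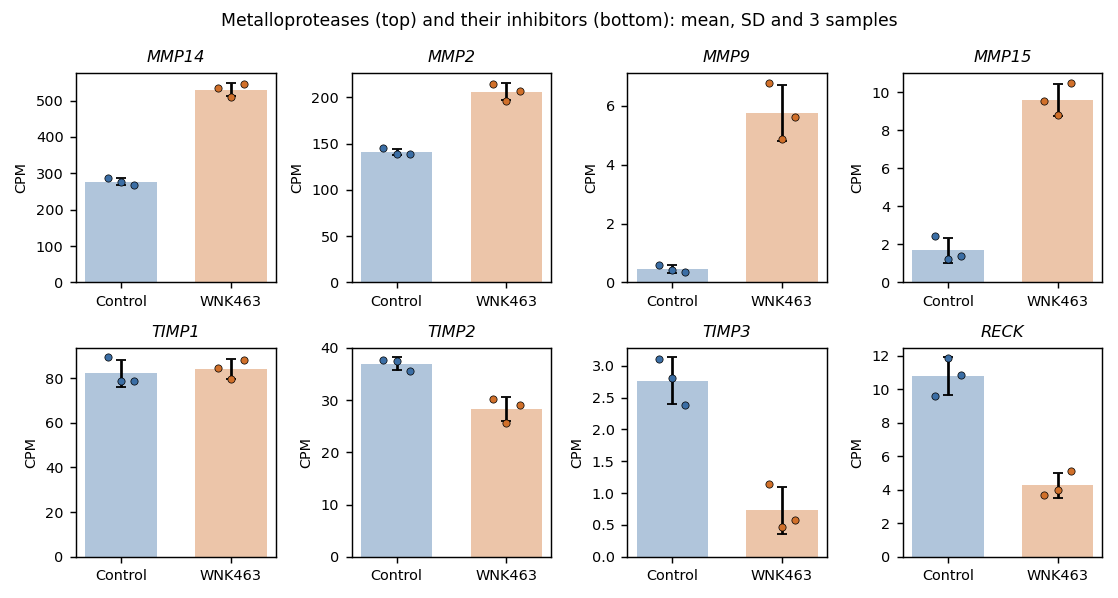
CPM of 4 MMPs (top) and of 3 TIMPs and *RECK* (bottom) in Control and WNK463 samples, with bars for the mean, error bars for the SD and points for the 3 samples. The 4 MMPs are higher in every WNK463 sample, *TIMP1* overlaps, and *TIMP2*, *TIMP3* and *RECK* are lower in every WNK463 sample.

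Among the ADAMs, membrane proteases that release growth factors, cytokines and receptors from the cell surface, 8 of 10 members were tested. *ADAM8* and *ADAM28* were differentially expressed upward, *ADAM9*, *ADAM10*, *ADAM17* and *ADAM22* rose by less, and *ADAM11* and *ADAM15* did not pass. No ADAM fell. *ADAM8* (chr10:133262403-133276868), a protease of leukocytes, had 5.36, 4.87 and 5.31 CPM in the Control and 15.9, 15.6 and 15.3 CPM in the WNK463 samples. Within each group the values were close together, and the groups were far apart (log2 fold change 1.59 ± 0.12, edgeR adjusted p = 1.54e-09).

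*ADAM10*, the sheddase of Notch receptors, was the highest ADAM by TPM with 51.5% to 56.5% of the family. It had 165, 179 and 189 CPM in the Control and 218, 227 and 224 CPM in the WNK463 samples and rose by 1.26-fold (log2 fold change 0.33 ± 0.05, edgeR adjusted p = 2.39e-05). *ADAM17*, which releases TNF, had 42.8, 43.7 and 43.8 CPM in the Control and 62.4, 64.2 and 62.8 CPM in the WNK463 samples and rose by 1.45-fold without overlap (log2 fold change 0.54 ± 0.06, edgeR adjusted p = 2.17e-07). Its exons share 1323 bases with *IAH1* on the other strand, which fell by 0.55 on the log2 scale (edgeR adjusted p = 8.28e-05). *ADAM15* had 117, 109 and 97.8 CPM in the Control and 105, 98.3 and 101 CPM in the WNK463 samples, which overlapped. Its log2 fold change was -0.09 ± 0.06 (adjusted p = 0.202), turned to 0.06 with total-count scaling, and was -0.17 with an adjusted p of 0.0166 without Control replicate 3.

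*ADAM28*, a lymphocyte metalloprotease, had 0.304, 0.206 and 0.427 CPM in the Control and 0.966, 0.814 and 1.02 CPM in the WNK463 samples, all at or below about 1 CPM and without overlap (log2 fold change 1.54 ± 0.45, edgeR adjusted p = 0.00511). The neighbouring *ADAMDEC1*, another gene of the ADAM kind that the rule does not take, was also differentially expressed upward (log2 fold change 2.98 ± 0.57, edgeR adjusted p = 0.00015). *ADAM22*, which lacks protease activity, had 9.07, 9.19 and 9.94 CPM in the Control and 17.3, 15.8 and 16.7 CPM in the WNK463 samples and rose (log2 fold change 0.82 ± 0.10, edgeR adjusted p = 1.67e-06). *ADAM12* had 1, 4 and 2 counts in the Control and 15, 5 and 12 in the WNK463 samples and was not tested. It passed the filter in 4 fits with 1 sample left out and was differentially expressed upward in each of them.

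The genes that control ADAM10 and ADAM17 changed in both directions. *RHBDF1*, an iRhom that carries ADAM17 to the cell surface, had 3.41, 4.18 and 2.87 CPM in the Control and 12.1, 12.2 and 13.9 CPM in the WNK463 samples and was differentially expressed upward (log2 fold change 1.87 ± 0.15, edgeR adjusted p = 5.89e-09), while its relative *RHBDF2* rose by 0.72. *TSPAN15*, a tetraspanin partner of ADAM10, had 2.92, 2.74 and 3.29 CPM in the Control and 9.24, 7.67 and 8.36 CPM in the WNK463 samples (log2 fold change 1.49 ± 0.17, edgeR adjusted p = 3.79e-07). Its fellow partner *TSPAN33* had 2.56, 1.78 and 2.81 CPM in the Control and 0.664, 0.407 and 0.830 CPM in the WNK463 samples, all treated samples being lower (log2 fold change -1.91 ± 0.35, edgeR adjusted p = 9.11e-05). *FURIN*, which cuts the propeptides of many ADAMs and membrane MMPs, rose by 0.62. The whole list of 19 activators and partners also holds *RECK*, the MMP inhibitor described above. In this list 13 were tested, 3 were differentially expressed upward and 2 (*TSPAN33* and *RECK*) downward. The median log2 fold change was 0.0071.

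The ADAMTS proteases and ADAMTS-like proteins are secreted. Of 14 members 11 were tested, 3 were differentially expressed upward and none downward, 2 rose and 3 fell by less. Most tested members of this family had a mean under 10 CPM, where 27.0% of all genes were differentially expressed upward and 9.63% downward. *ADAMTS4* and *ADAMTS5*, the aggrecanases, were both upward at low levels. The former had 0.304, 0.343 and 0.183 CPM in the Control and 1.51, 0.930 and 1.28 CPM in the WNK463 samples (log2 fold change 2.14 ± 0.44, edgeR adjusted p = 3.38e-04) and the latter 0.426, 0.412 and 0.305 CPM in the Control and 1.39, 1.05 and 1.21 CPM in the WNK463 samples (log2 fold change 1.66 ± 0.40, edgeR adjusted p = 0.00129), without overlap in either gene. *ADAMTSL4* (chr1:150549369-150560937), a microfibril protein without a protease domain, had 6.76, 7.48 and 6.28 CPM in the Control and 15.5, 14.4 and 14.2 CPM in the WNK463 samples. By mean TPM it was below *ADAMTSL5* and *ADAMTSL2* in the Control (3.11 against 3.94 and 3.89) and the highest of the family in the WNK463 samples (7.49), and its treated samples were all higher (log2 fold change 1.11 ± 0.12, edgeR adjusted p = 1.64e-07). Its exons share 736 bases with *ADAMTSL4-AS1*.

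*ADAMTS13*, which cuts von Willebrand factor, rose by 0.91 ± 0.26 and *ADAMTS10* by 0.89 ± 0.22, and both passed the fold limit with total-count scaling (1.06 and 1.04). *ADAMTSL2* had 7.92, 7.68 and 7.87 CPM in the Control and 5.31, 5.47 and 5.49 CPM in the WNK463 samples and fell (log2 fold change -0.53 ± 0.14, edgeR adjusted p = 0.00324), but did not pass on log2(TPM + 1), with -0.26. *ADAMTS15* and *ADAMTSL5* fell by 0.78 and 0.61 on the log2 scale, and each missed the threshold in 3 of 6 fits with 1 sample left out and with total-count scaling. *ADAMTS2* and *ADAMTS14*, which remove the amino-terminal propeptide of fibrillar procollagens, did not pass (0.18 ± 0.16 and -0.16 ± 0.20). Without WNK463 replicate 3, 5 genes of the family were differentially expressed, with *ADAMTS6* and *ADAMTS15* as the additional ones. *ADAMTS7*, of which the genome carries partial copies, had 1 count in the Control and 15 in the WNK463 samples and was not tested.

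The serpins held 16 members, of which 11 were tested. Of these 4 were differentially expressed upward and none downward, 3 rose by less, 2 fell by less and 2 did not pass. Of all tested genes 9.62% were differentially expressed upward and 5.55% downward. The 4 upward members encode secreted serpins, while the 4 tested genes of clade B, whose products mostly stay within cells, had log2 fold changes between -0.24 and 0.54.

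*SERPINF1* (chr17:1761959-1777574) encodes PEDF, a secreted serpin without inhibitory activity. It had 63.4, 59.6 and 62.1 CPM in the Control and 197, 181 and 189 CPM in the WNK463 samples, the groups being far apart (log2 fold change 1.62 ± 0.05, edgeR adjusted p = 6.07e-14), and its share of serpin TPM went from 19.6% in the lowest to 41.3% in the highest sample. *SERPINF2* (chr17:1742836-1755268), alpha 2-antiplasmin, lies 6691 bp upstream on the same strand and had 0.609, 0.549 and 0.549 CPM in the Control and 2.72, 2.79 and 2.17 CPM in the WNK463 samples. It rose as well (log2 fold change 2.16 ± 0.32, edgeR adjusted p = 1.05e-05), at a much lower TPM (0.665 and 2.80 as group means against 88.3 and 299 for *SERPINF1*).

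Serpins that inhibit plasminogen activators are described next. *SERPINI1* (chr3:167735243-167825568), neuroserpin, had 1.77, 1.78 and 1.71 CPM in the Control and 10.9, 9.77 and 9.07 CPM in the WNK463 samples, with narrow spread in both groups (log2 fold change 2.50 ± 0.18, edgeR adjusted p = 8.73e-10). It starts 829 bases from *PDCD10* in RefSeq, which is read the other way and rose by 0.39. *SERPINB2*, PAI-2, was near 0.6 CPM in both groups with a log2 fold change of -0.15 ± 0.43 (adjusted p = 0.760), which turned positive (0.05 and 0.07) without Control replicate 3 or WNK463 replicate 3. *PLAU*, urokinase, which is such an activator, had 89.7, 83.5 and 83.4 CPM in the Control and 91.7, 90.0 and 93.0 CPM in the WNK463 samples and did not pass (log2 fold change 0.10 ± 0.05, edgeR adjusted p = 0.113). The other clade I gene, *SERPINI2*, is placed here for its clade and not as an inhibitor of plasminogen activators. It rose by 0.89 ± 0.31 (adjusted p = 0.0172) but missed the threshold in 4 of 6 fits with 1 sample left out (adjusted p 0.0531 to 0.0928).

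Some serpins inhibit the granule proteases of neutrophils. *SERPINA1*, alpha 1-antitrypsin, which blocks neutrophil elastase, had 24.0, 19.1 and 17.9 CPM in the Control and 36.7, 34.9 and 37.9 CPM in the WNK463 samples and rose without overlap (log2 fold change 0.84 ± 0.10, edgeR adjusted p = 3.64e-07). *SERPINB1*, an intracellular inhibitor of elastase, cathepsin G and proteinase 3, had 84.2, 79.8 and 77.5 CPM in the Control and 115, 114 and 123 CPM in the WNK463 samples and also rose (log2 fold change 0.54 ± 0.06, edgeR adjusted p = 9.13e-08). Both stayed under the fold limit.

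The 3 proteases named as their targets fell. *ELANE*, neutrophil elastase, had 237, 224 and 217 CPM in the Control and 96.6, 96.4 and 103 CPM in the WNK463 samples (log2 fold change -1.20 ± 0.05, edgeR adjusted p = 1.40e-12), and *PRTN3*, proteinase 3, had 805, 802 and 778 CPM in the Control and 339, 299.9 and 342 CPM in the WNK463 samples (log2 fold change -1.28 ± 0.05, edgeR adjusted p = 4.68e-13). In each gene the treated values were less than every untreated value by a wide margin. *CTSG*, cathepsin G, had 112, 120.2 and 119 CPM in the Control and 84.7, 85.2 and 87.0 CPM in the WNK463 samples and fell by less (log2 fold change -0.45 ± 0.05, edgeR adjusted p = 4.98e-07), and *PRSS57*, a further granule protease, had 79.6, 81.0 and 71.4 CPM in the Control and 27.7, 26.5 and 25.0 CPM in the WNK463 samples (log2 fold change -1.55 ± 0.07, edgeR adjusted p = 2.39e-12). *AZU1*, which lies in the same gene cluster as *PRTN3* and *ELANE*, did not pass (log2 fold change -0.09). In the list of 23 target proteases 11 were tested, 3 were differentially expressed downward and 1 upward, 2 fell by less and 5 did not pass, and the median log2 fold change was -0.13. The upward gene was *KLKB1*, plasma prekallikrein, with no count in any Control sample and 57 counts over the WNK463 samples. It was 18.2-fold higher with the Control set to a floor of 3 counts over the group.

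**Figure D5:**
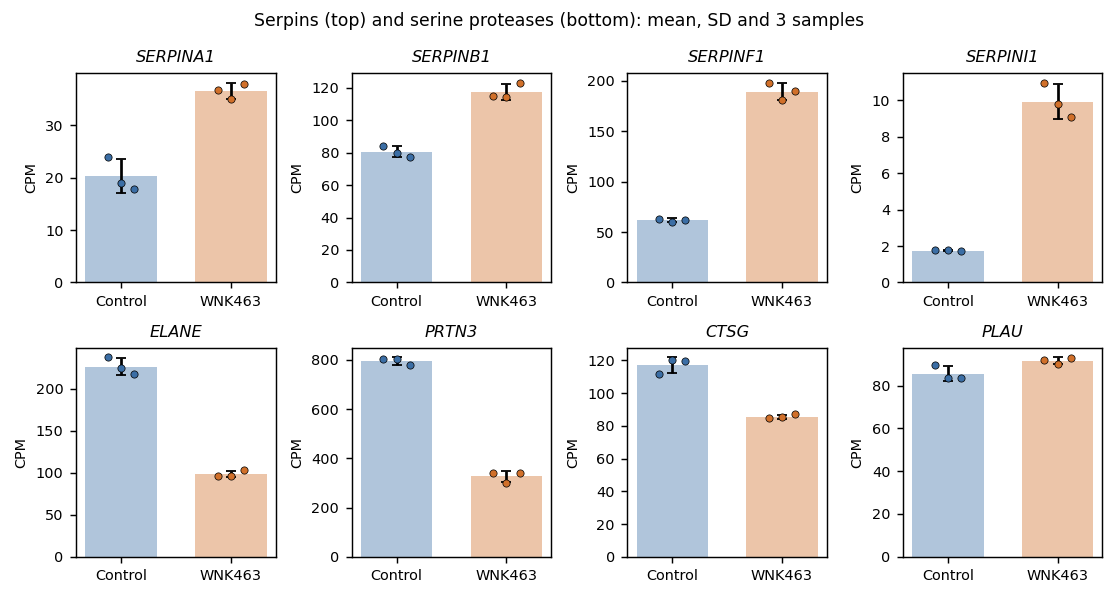
CPM of 4 serpins (top) and 4 serine proteases (bottom) in Control and WNK463 samples, with bars for the mean, error bars for the SD and points for the 3 samples. The serpins are higher in every WNK463 sample, *ELANE*, *PRTN3* and *CTSG* are lower, and the 2 groups of *PLAU* differ little.

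The clade B serpins with the highest mean TPM, *SERPINB8* and *SERPINB6*, changed little. *SERPINB8*, an inhibitor of furin, had 160.4, 164 and 171 CPM in the Control and 167, 171 and 166 CPM in the WNK463 samples, which overlapped, and a log2 fold change of 0.03 ± 0.05 (adjusted p = 0.616), or 0.18 (adjusted p = 0.00294) with total-count scaling. It passed in 4 of 14 alternative fits, over which the log2 fold change was 0.0013 to 0.26. *SERPINB6* had 89.5, 81.8 and 81.0 CPM in the Control and 71.3, 71.1 and 71.0 CPM in the WNK463 samples and fell by 0.24 (log2 fold change -0.24 ± 0.06, edgeR adjusted p = 0.00101). *SERPINH1*, the collagen chaperone HSP47, had 37.5, 36.1 and 38.3 CPM in the Control and 33.3, 30.0 and 31.9 CPM in the WNK463 samples and fell by 0.23 (log2 fold change -0.23 ± 0.07, edgeR adjusted p = 0.00743). Neither of these falls passed with total-count scaling, and *SERPINH1* was at -0.0088 on log2(TPM + 1). *SERPINC1*, antithrombin, had no count in the Control and 8, 5 and 1 counts in the WNK463 samples. With the Control set to a floor of 3 counts over the group, it was 4.48-fold higher. *SERPINB9* had 2 counts in all.

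Genes that process, bind or accompany collagen were taken from lists made with earlier results of these data known. Of the 33 collagen processing genes 20 were tested, 5 were differentially expressed upward and none downward, 4 rose and 7 fell by less, and 4 did not pass. The upward genes included *PCOLCE*, an enhancer of procollagen C-proteinase, with 1.64, 1.65 and 1.77 CPM in the Control and 5.86, 6.69 and 6.06 CPM in the WNK463 samples (log2 fold change 1.87 ± 0.21, edgeR adjusted p = 2.39e-07), and the cross-linking enzyme gene *LOXL2* with 1.52, 0.892 and 1.16 CPM in the Control and 3.62, 3.55 and 3.77 CPM in the WNK463 samples (log2 fold change 1.60 ± 0.27, edgeR adjusted p = 3.47e-05). Several endoplasmic reticulum enzymes of the list fell. *P4HB*, a subunit of prolyl 4-hydroxylase and also a disulfide isomerase, fell by 0.29, *P4HA1* by 0.38, *COLGALT1* by 0.57 and *PPIB*, a prolyl isomerase, by 0.65 on the log2 scale. Others of the list did not fall. *P3H4* was differentially expressed upward (log2 fold change 1.59), *CRTAP* rose by 0.13, and *PLOD1* (0.07) and *PLOD3* (0.12) did not pass.

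Of 45 matrix glycoproteins and proteoglycans 21 were tested, 5 were differentially expressed upward and 2 downward, with a median log2 fold change of 0.49. The fibrillin gene *FBN2* had 0.304, 0.960 and 0.122 CPM in the Control and 1.93, 2.38 and 2.11 CPM in the WNK463 samples, with the Control samples uneven and all below the treated ones (log2 fold change 2.24 ± 0.45, edgeR adjusted p = 2.35e-04). The log2 fold change was 1.77 to 3.27 with 1 sample left out, and the highest value was that without Control replicate 2. *EFEMP2*, fibulin-4, had 2.13, 1.10 and 1.65 CPM in the Control and 3.68, 2.97 and 4.21 CPM in the WNK463 samples (log2 fold change 1.14 ± 0.27, edgeR adjusted p = 0.00119). The syndecan *SDC3* had 2.44, 2.13 and 1.83 CPM in the Control and 0.544, 0.756 and 0.128 CPM in the WNK463 samples and was downward (log2 fold change -2.12 ± 0.41, edgeR adjusted p = 1.65e-04). *HSPG2*, perlecan, and *AGRN*, agrin, basement membrane proteoglycans, rose by 0.70 and 0.86, and *TGFBI* fell by 0.60. *SPARC*, a collagen-binding glycoprotein, had no count in the Control and 42 counts in the WNK463 samples. It was 13.4-fold higher with the Control set to the same floor of 3 counts. Fibronectin (*FN1*) was not tested.

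Of 19 receptors for collagens, laminins and proteases 14 were tested, 1 was differentially expressed upward and 4 downward, and 8 rose by less. *DDR2*, a receptor kinase for fibrillar collagens, had 0.852, 0.892 and 0.793 CPM in the Control and 2.05, 2.33 and 1.79 CPM in the WNK463 samples (log2 fold change 1.28 ± 0.31, edgeR adjusted p = 0.00129). *LRP1*, which clears MMP and serpin complexes, had 15.3, 12.4 and 13.9 CPM in the Control and 6.16, 5.41 and 5.36 CPM in the WNK463 samples (log2 fold change -1.30 ± 0.13, edgeR adjusted p = 7.60e-08), and the collagen receptor chain *ITGA2* had 1.83, 0.686 and 1.52 CPM in the Control and 0.423, 0.640 and 0.447 CPM in the WNK463 samples (log2 fold change -1.42 ± 0.43, edgeR adjusted p = 0.00650), both with the treated samples low. On log2(TPM + 1) *LRP1* did not pass (-0.29). *ITGA6*, a laminin receptor chain, fell by 1.07, while *ITGB1*, its partner in many integrins, rose by 0.52 and *DAG1*, dystroglycan, by 0.66. Over the 139 genes of the 5 lists 79 were tested, 15 were differentially expressed upward and 11 downward, beside the same backgrounds as above, with a median log2 fold change of 0.12.

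Markers of other cells were read in the same samples. All 11 markers of myeloid blasts were tested, among them *SPI1*, *FLT3* and *CD33*. Their summed level was 2511 to 2642 CPM in the Control and 1691 to 1729 CPM in the WNK463 samples, with means of 1355 and 291 CPM for *LYZ*. *LYZ* and *MPO* were differentially expressed downward and *PTPRC* and *ITGAM* upward, 4 others rose and 2 fell by less, and the median log2 fold change of the list was 0.18. Of 9 fibroblast and stromal markers 6 were under 1 CPM in every sample, and *LUM* and *POSTN* had no count. Their sum rose from 7.14 to 11.4 CPM in the Control to 18.7 to 21.2 CPM in the WNK463 samples, through *TAGLN* and *PDGFRB*. *ACTA2* was lower in every WNK463 sample (means of 3.49 and 2.55 CPM) but did not pass. Of 8 macrophage markers 4 were differentially expressed upward, and their sum went from 2.44 to 3.47 CPM to 20.4 to 21.1 CPM. *C1QA* carried most of it (means of 0.985 and 13.1 CPM), while *MRC1* and *CD163* were at or near 0. *MARCO*, with means of 1.76 and 1.45 CPM, overlapped and did not pass. The epithelial markers *EPCAM*, *CDH1* and *KRT19* and the 4 erythroid markers had no count, and 5 of 6 endothelial markers were under 1 CPM. The epithelial keratin *KRT8* rose by 0.41 and *KRT18* fell by 0.68 on the log2 scale, both within 5.70 to 12.9 CPM in every sample, and the sixth endothelial marker *PECAM1*, which leukocytes also carry, had 105, 91.4 and 94.3 CPM in the Control and 176, 163 and 168 CPM in the WNK463 samples and rose (log2 fold change 0.80 ± 0.06, edgeR adjusted p = 9.54e-10). The part of these shifts in the values of the matrix, protease and serpin genes was not tested.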

How the data were processed

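Poly(A) RNA of 3 untreated (Control) and 3 WNK463-treated MV4-11 samples was sequenced on an Illumina Novaseq X Plus. For 20348 genes the authors deposited estimated counts, written as whole numbers and not normalized, and TPM values that sum to 1000000 per sample. The submitters' processing notes name fastp, Bowtie2, HISAT2, StringTie, RSEM, DESeq2, edgeR and GRCh38 without versions or roles. The authors' own comparison is also deposited (mean TPM, a log2 fold change, and a p-value with its FDR) and was not used.

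The symbol rule and the limit of 10 counts gave the members. The members and all gene lists were chosen with earlier results of these data known. Counts were tested with edgeR 4.0.16 in R 4.3.3 (quasi-likelihood test with the group as the only term, TMM scaling, the filterByExpr defaults for low counts, Benjamini-Hochberg adjustment over 11973 genes). Standard errors were derived from the F statistic as |log2 fold change|/√F, and CPM were computed with TMM-scaled libraries. TMM factors were 0.944 to 0.951 in the Control and 1.05 to 1.06 in the WNK463 samples. Scaling by total counts raises the median log2 fold change of all genes by 0.15. Total counts were 14915745 to 17411780 per sample, and intervals and floors cover counting error only. A fold against the floor of 3 Control counts takes the treated counts as observed and is not a lower limit. An exact two-sided permutation test of 3 against 3 samples cannot go below p = 0.10 and was not used.

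Same-numbered samples did not deviate together (correlations of 0.013, 0.016 and -0.056 over 11973 genes), and replicates differed by more than sampling noise. The procedure was tested on simulated counts for these libraries, where edgeR recovered 97 of 100 genes changed by a log2 fold of 1 and 100 of 100 changed by 2, with 4 false calls among 11861 genes. Changes were simulated only in genes with higher mean counts than low members such as *ADAM28* and *COL25A1* (61 and 65 counts in all). Only 200 genes were changed, far fewer than passed in these data. Recovery in such low members, and false calls beside so many changed genes, were therefore not tested.

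Genes named were the 12 differentially expressed members per direction with the largest change, no overlap and a mean of at least 1 CPM, the 2 members per family with the highest mean TPM, preset members, and the 2 genes with the largest change per list and direction. Neighbouring genes, *SERPINI2*, *ADAM28* and further members or listed genes outside this rule were chosen with their values known. Alternatives were DESeq2 1.42.0, total-count scaling, 2 other filters, no fold limit, edgeR's glmTreat, limma 3.58.1 on log2(TPM + 1) and log2(TPM + 0.1), the replicate number as a block, and each sample left out in turn. Gene positions are from GENCODE 29 (GRCh38), promoters from RefSeq (GRCh38.p14). For 1 member, counted in the totals, no values are reported here.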

Additional observations from a re-analysis of the deposited data

How the results depend on the processing

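The 20 upward and 4 downward members kept these counts with DESeq2 and with the replicate number as a block (20 and 4 in both, with the same genes), and 1 sample left out gave 20 to 22 and 4 to 5. A filter of 10 counts in every sample, which removes low members, gave 9 and 2, no fold limit gave 32 and 11, glmTreat gave 2 downward, limma on log2(TPM + 1) gave 13 and 1 with and without its TPM filter, and limma on log2(TPM + 0.1) gave 2 downward. For glmTreat and limma on log2(TPM + 0.1) only the downward count is given, and their upward counts lay between 9 and 32. By family, in the order ADAMTS and ADAMTSL (3), ADAMs (2), TIMPs (1), collagens (9) and serpins (4), the stricter filter gave 1, 1, 0, 3 and 2. Without the fold limit the counts were 8 ADAMTS and ADAMTSL genes, 6 ADAMs, 2 TIMPs, 2 laminins, 9 serpins and 63 related genes (26 with it). With glmTreat they were 1 ADAMTS or ADAMTSL gene, 1 ADAM, 3 MMPs (5 before) and 12 related genes. With limma on TPM they were 1 ADAMTS or ADAMTSL gene at a pseudocount of 1, 1 ADAM, 0 TIMPs, 3 collagens (4 at a pseudocount of 0.1) and 13 related genes (14 without the TPM filter). Total-count scaling and a filter on the sum of counts each gave 5 ADAMTS and ADAMTSL genes, and the latter 1 laminin. With 1 sample left out, ADAMTS and ADAMTSL genes ranged from 3 to 5, ADAMs from 2 to 3, laminins from 0 to 1 and related genes from 26 to 28.

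Directions turned only in named genes that had not passed: *ADAM15* with total-count scaling (0.0618) and limma (0.0952 and 0.0964), *LAMB3* with total-count scaling (0.108), limma (0.069 and 0.0802) and 1 sample left out (-0.116 to 0.08), *SERPINB2* with limma without a TPM filter (0.0045) and 1 sample left out (-0.3019 to 0.0743), and *TIMP1* with 1 sample left out (-0.0124 to 0.0886). With total-count scaling, 32 members rose and 7 fell as before, *ADAMTS15*, *ADAMTSL5*, *SERPINB6* and *SERPINH1* no longer passed, and *COL26A1*, *COL9A2*, *COL9A3*, *SERPINB8* and *TIMP1* passed as rises. Of 20348 genes 4605 had no count, and members under about 1 CPM rest on few reads, so that their folds are imprecise.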

Other observations

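The adjacency of changed genes was read from GENCODE 29. *SERPINF2* and *SERPINF1*, 6691 bp apart on the same strand, were both differentially expressed upward, as were *ADAM28* and *ADAMDEC1*, 25267 bp apart, and *COL23A1* and *CLK4*, 12109 bp apart. *ADAM9*, which rose by 0.76 ± 0.09, starts 45 bp from *TM2D2*, which is read the other way and had a log2 fold change of -0.0047 ± 0.08 (edgeR adjusted p = 0.962). *ADAMTS8* had 7 counts in the Control and 8 in the WNK463 samples beside *ADAMTS15*, which fell by 0.78.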
